A study of Mus musculus with 6 samples.

Results

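Lcn2, Tgm1, Serpina3n, Aspg and S1pr3 are 5 genes known from reactive astrocytes, and they are 5 of the 12968 genes in the deposited table of ribosome-bound RNA. They were picked by symbol as genes that are near silent in the resting brain and raised after stroke, with results of these libraries already known. Their values in the 2 groups are therefore given as a description with no test, and tests are given for other genes alone. The label held for part of the set. Lcn2 and Tgm1 stood at the lowest possible value in every control and Aspg at a handful of reads, S1pr3 was low, and Serpina3n was not near silent, since its control mean lay above that of 94.0% of the genes in the table.

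The study compared 3 mice whose middle cerebral artery had been occluded for 1 h (MCAO, a model of ischemic stroke) with 3 control mice that had no occlusion, and all animals were killed after 3 days. RNA came from the middle section of the left brain hemisphere in both groups. All 6 animals carried RiboTag, an allele with which Cre recombinase switches on a tagged form of Rpl22, a protein of the ribosome, so that ribosomes and their RNA can be precipitated; the series title names astrocytes, while the labels give no Cre driver, strain, sex or age and describe no sham operation. Each library is 1 animal, from 2 pooled precipitations, and the 2 technical replicates per animal stand as 1 column. Values are scaled read counts, in which the reads of a library are all divided by the same factor, and anything under 1 is listed as 1, here called the floor.

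Recovered reads ranged from 882263 in MCAO 2, through 4027185 in MCAO 3, to 4567615 in MCAO 1, and numbered 9519548 in control 1, 1538901 in control 2 and 1816934 in control 3. One read is worth 3.11 scaled reads in MCAO 2 and 0.288 in control 1, so 0 reads are listed as 1 in every library and as many as 3 reads are hidden there in control 1. Astrocyte markers were present in every library, with all 18 listed genes in the table. Their summed level was 52881 to 70512 scaled reads after MCAO, and 84970, 50751 and 80997 in controls 1, 2 and 3. These sums include Gfap, at 6372 ± 1460 after MCAO and 576 ± 64.9 in controls (SD, n = 3 each). On the log2(value + 1) scale 13 of the 18 genes were lower after MCAO and 5 higher, and limma called Gfap alone. Markers of neurons were present too, with 15 of 15 in the table and sums of 27047 to 31936 after MCAO and 29108 to 33927 in controls. Input RNA was not used here, so enrichment of astrocyte RNA was not measured. Rpl22 itself was at 251 ± 52.1 scaled reads after MCAO and 197 ± 32.8 in controls (SD, n = 3 each; limma adjusted p = 0.330).

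Astrocytes answer injury by changing shape and switching on genes that they use little at rest, a state called reactive. In mouse studies, Lcn2, Serpina3n, Aspg and S1pr3 were described as pan-reactive genes, raised both after MCAO and after systemic lipopolysaccharide, and Tgm1 as a gene of the A2 set raised after MCAO. The proteins have unlike roles. Lcn2 encodes lipocalin 2, a secreted protein that binds bacterial iron carriers; Serpina3n encodes a secreted serine protease inhibitor related to human antichymotrypsin; Tgm1 encodes a transglutaminase that cross-links proteins and is best known from the cornified layer of the skin; Aspg encodes an asparaginase; and S1pr3 encodes a G protein-coupled receptor for the lipid sphingosine 1-phosphate (S1P).

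Lcn2 (chromosome 2, 32384637 to 32387739) and Tgm1 (chromosome 14, 55700009 to 55713921), the secreted and the cross-linking protein, are the pair with no reading above the floor in any control. The letters before their starts are shown because these 2 members differ most between the groups. The 250 bases before the start of Lcn2 (RefSeq, GRCm38.p6, chr2:32387740-32387989, minus strand) held 1 match, in capitals, to the letters TTGCNNAA of the C/EBP motif, which begins at position -216 from the start. The 2 stretches of Tgm1 (minus strand, chr14:55713647-55713675 and chr14:55713538-55713566) hold the only 2 matches, in capitals, to TTCNNNGAA, the STAT motif, in its window of 250 bases, at positions -173 and -64 from the start. Tgm1 has a second annotated start, whose window held no match. Both windows lie within the annotated span of the gene, so the letters before its outer end at 55713921 were not searched.
Lcn2: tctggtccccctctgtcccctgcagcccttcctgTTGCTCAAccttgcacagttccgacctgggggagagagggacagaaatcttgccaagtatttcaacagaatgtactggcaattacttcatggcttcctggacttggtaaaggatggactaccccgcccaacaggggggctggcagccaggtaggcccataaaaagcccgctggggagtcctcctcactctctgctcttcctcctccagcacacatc
Tgm1, first stretch: atgacctcagTTCCTAGAAaggagaaagt
Tgm1, second stretch: tcttccccttTTCCCAGAAactcggcccc
Both strands of all RefSeq mouse windows of the same length were searched, 32851 in number. The STAT letters were in 7.02% of them at least 1 time and in 0.317% at least 2 times, and the C/EBP letters in 9.56%. The NF-kB motif (in 7.25% of windows), TGANTCA of AP-1 (6.75%) and TATAAA (12.4%) had no match in the 6 windows of the members, and the windows of Serpina3n, Aspg and S1pr3 held none of the 5 motifs. A match describes letters alone, and none of the printed matches overlaps another.

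Lcn2 had 108, 65.3 and 111 scaled reads in MCAO 1, 2 and 3, from 184, 21 and 166 reads, against the floor in controls 1, 2 and 3. All MCAO libraries were far above all controls, and MCAO 2 was the lowest of them. The MCAO mean of 94.7 ± 25.5 (SD, n = 3) was at least 17.8-fold higher when all controls are set at 5.32 scaled reads, which 3 reads are worth in the shallowest of them and which lies above the reads that the floor can hide in control 1. Tgm1 had 155, 71.5 and 199 scaled reads in MCAO 1, 2 and 3, from 263, 23 and 299 reads, against the floor in every control. MCAO 2 was again the lowest, and the groups were again far apart. The mean of 142 ± 64.8 (SD, n = 3) for Tgm1 was at least 26.6-fold higher on the same terms.

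Serpina3n (chromosome 12, 104406646 to 104414334), the abundant inhibitor of the set, had 2818, 1468 and 3074 scaled reads in MCAO 1, 2 and 3, against 713, 491 and 724 in controls 1, 2 and 3. The groups did not overlap, and the lowest library of each was its shallowest. Control 2 also had the lowest sum of astrocyte markers among the controls. The part of depth and of these markers in its value was not tested. The means were 2453 ± 863 after MCAO and 643 ± 131 in controls (SD, n = 3 each), a ratio of 3.82 and a difference of 1.88 on the log2(value + 1) scale. In scaled reads this was the largest gain among the members, while on the log2 scale it was the smallest.

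Aspg (chromosome 12, 112106683 to 112127573), the asparaginase gene, had 18.8, 18.7 and 29.3 scaled reads in MCAO 1, 2 and 3, against 3.74 and 3.55 in controls 1 and 2 and the floor in control 3. Few reads lie behind these values: 32, 6 and 44 after MCAO against 13, 2 and 0 in controls. The groups did not overlap, and control 1, the deepest library, holds 13 of the 15 control reads. Its log2 difference of 2.70 depends on the floor value and was 2.29 without control 3.

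S1pr3 (chromosome 13, 51408618 to 51422797), the receptor gene, had 74.1, 21.8 and 59.3 scaled reads in MCAO 1, 2 and 3, against 11.2, 3.55 and 21.1 in controls 1, 2 and 3. MCAO 2, with 7 reads, stood at 1.03 times control 3, with 14 reads, and their 95% exact Poisson intervals (8.75 to 44.9 and 11.6 to 35.4 scaled reads) overlap. The means were 51.7 ± 27.0 after MCAO and 11.97 ± 8.81 in controls (SD, n = 3 each), a ratio of 4.32. The log2 difference of 2.13 was 1.51 without control 2 and 2.65 without MCAO 2 or without control 3, which is the widest range among the members when 1 library was left out. Its annotated span overlaps that of the noncoding gene Gm32834, and Aspg overlaps the microRNA genes Mir3073a and Mir3073b; the sources used here do not say whether reads were counted by strand.

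**Figure D1:**
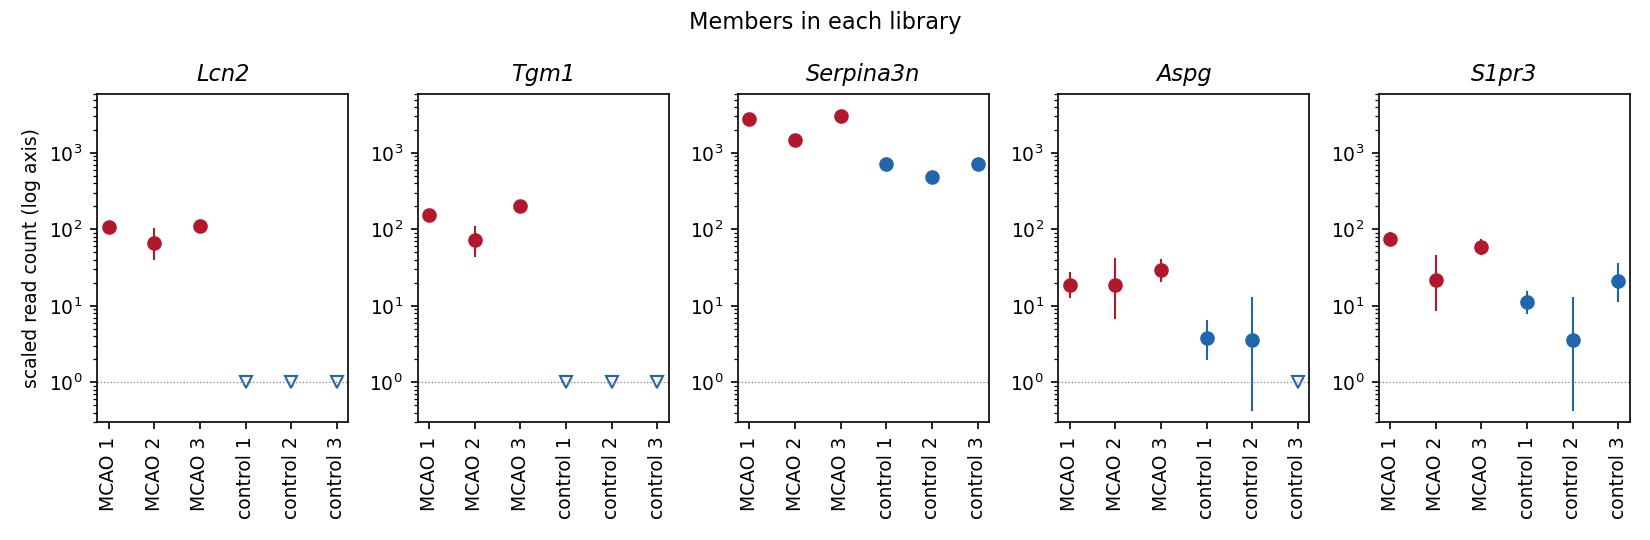
Scaled read counts (log axis) of each member in the 3 MCAO libraries (red) and the 3 controls (blue); bars are 95% exact Poisson intervals, and open triangles on the dotted line are values at the floor of 1. Lcn2 and Tgm1 stand at 65.3 or more in every MCAO library and at the floor in every control, while Serpina3n is at 491 or more throughout.

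In all 5 members the 3 MCAO libraries lay above the 3 controls, which 12.4% of the 12549 tested genes did. Because the members were picked for that difference, the count says nothing further. In ribosome precipitates from whole tissue, more cells of a type and more RNA per cell cannot be told apart.

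The differences among the MCAO animals were not used in picking the genes. MCAO 2 was the lowest MCAO library in 5 of 5 members, a place it took in 38.8% of all tested genes. In Serpina3n it stood at 0.521 of MCAO 1 (95% exact interval 0.473 to 0.573) and at 0.478 of MCAO 3 (0.434 to 0.525). In Tgm1 the ratios were 0.462 (0.288 to 0.709) and 0.359 (0.224 to 0.549), in Lcn2 0.603 (0.365 to 0.94998) and 0.591 (0.356 to 0.933), and in S1pr3 0.294 (0.116 to 0.623) and 0.367 (0.144 to 0.789). The intervals of these 4 genes lie below 1 against both libraries. In Aspg they span it, at 0.991 (0.339 to 2.40) and 0.637 (0.222 to 1.4998). The intervals cover counting error and compare libraries, not conditions. Over tested genes above the floor in all MCAO libraries the median ratio was 0.992 against MCAO 1 and 0.990 against MCAO 3. The libraries had been scaled to a like level, so a median near 1 follows from the scaling. It is given as a reference for the ratios of the members alone. Relative to the mean of MCAO 1 and 3, MCAO 2 stood under 0.6 in 4 of 5 members and in 9.40% of tested genes.

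**Figure D2:**
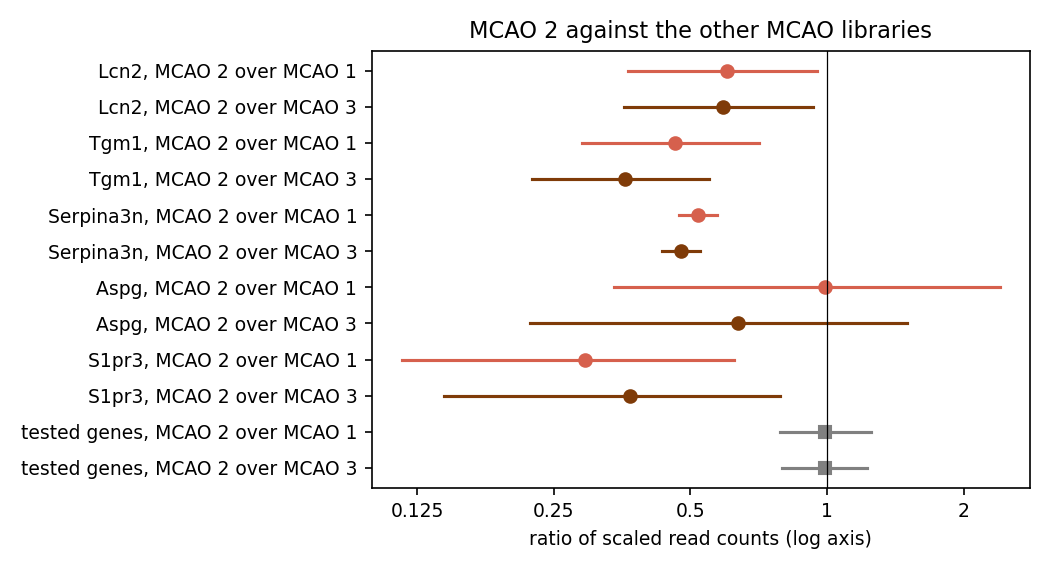
Ratio of the scaled read count of MCAO 2 to that of MCAO 1 (light) and of MCAO 3 (dark) on a log axis, with 95% exact intervals for the members; grey squares are the medians of tested genes, and grey bars the middle 50% of genes. Lcn2, Tgm1, Serpina3n and S1pr3 lie left of 1 with their intervals, Aspg does not, and the medians of tested genes are 0.992 and 0.990.

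Other reactive genes were low in the same animal too. MCAO 2 stood below the mean of MCAO 1 and 3 in 8 of 8 other pan-reactive genes in the table (median ratio 0.665) and in 9 of 9 other A2 genes (median 0.580), lists that are described further on, while the median over tested genes was 0.987. The ratios were lowest in Osmr at 0.104 and Emp1 at 0.152. MCAO 2 held 3.11 and 9.33 scaled reads of them, which are 1 and 3 reads. These 2 ratios therefore cannot be ranked against those of the members. The ratios were 0.414 in Cd44, 0.445 in Timp1 and 0.416 in Cd14, and 0.694 in Vim, 0.762 in Gfap and 0.934 in S100a10. Timp1 and Cd14 had 21.8 and 18.7 scaled reads in MCAO 2, which are 7 and 6 reads. No interval was computed for these genes. Astrocyte markers had a median ratio of 1.02, with 6 of 18 below 1, and microglia markers of 0.777, with 15 of 18 below 1. Markers of fibroblasts and meninges, 10 of 11 in the table, had a median ratio of 0.446. Their sums were 3618, 2105 and 3098 scaled reads in MCAO 1, 2 and 3, of which Ptgds alone held 2719, 1443 and 2283. Of the 10 genes 9 had a ratio below 1, with Pdgfra at 0.946, and Igf2 stood at 1.08. Lum and Slc6a13 were at the floor in MCAO 2. MCAO 2 is also the shallowest library, and the part of depth and of these cells in its low values was not tested.

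Genes with the same pattern were sought by 2 measures. By the first, 17 genes of the table were at the floor in every control and above it in every MCAO library: Lcn2, Tgm1 and 15 others, of which 5 passed the filter on the mean. Since this choice uses the difference between the groups, their values are a description with no test. The MCAO means of the 15 ran from 10.04 to 33.3 scaled reads, all under those of Lcn2 and Tgm1. The highest was Ifi202b, an interferon-inducible gene, at 33.3 ± 4.58 (SD, n = 3), followed by Msr1, a scavenger receptor gene of macrophages, at 31.8 ± 17.3, and Ctse, an aspartic protease gene, at 23.1 ± 9.25. Cd180, a gene of B cells and myeloid cells, was at 23.04 ± 16.1, and Adam8, a membrane metalloprotease gene, at 20.2 ± 18.6. The rest were Gm26964, Hk3, Cxcl13, Tk1, Gpr84, Cd300ld3, Ap3s1-ps1, Ms4a6c, Hal and Hmga2, whose means were below the filter. Gm26964 was at 10.6, 37.3 and 1.33 scaled reads in MCAO 1, 2 and 3, and the other 9 stayed between 5.33 and 24.0 in each.

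**Figure D3:**
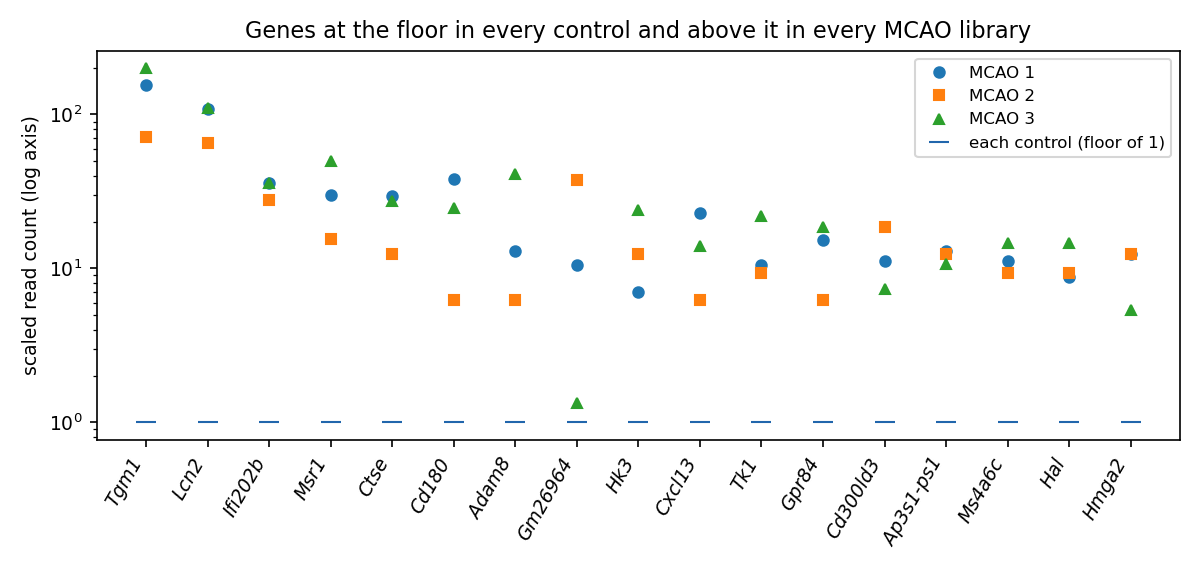
Scaled read counts (log axis) of the 17 genes at the floor in every control and above it in every MCAO library, ordered by their MCAO mean; symbols mark MCAO 1, 2 and 3, and blue dashes the controls, which all stand at the floor of 1. Tgm1 and Lcn2 are the 2 highest, at 65.3 or more in every MCAO library, and the next mean is 33.3.

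By the second measure, the root mean square distance of log2(value + 1) over the 6 libraries, the nearest genes to Lcn2 were Timp1 (distance 0.943), a metalloproteinase inhibitor gene, and Ifi202b (1.03). Tgm1 had Lgals3 (1.18), which encodes galectin 3, and Timp1 (1.27). Serpina3n had Trf (0.359), the transferrin gene, and Tmsb4x (0.529), a thymosin gene. Aspg had Fcgr2b (0.366) and Cybb (0.377), an Fc receptor and an oxidase subunit of phagocytes, and S1pr3 had Pld4 (0.497) and Adgre1 (0.534), of which the second encodes the macrophage antigen F4/80. Likeness here is a description over 6 libraries in 2 groups and takes in level as well as difference. Microglia markers moved with these genes: all 18 listed were in the table, 12 rose after MCAO and 0 fell, and their summed level was 2448 to 3341 scaled reads after MCAO and 671 to 876 in controls. Of 18 neutrophil and monocyte markers 2 were in the table, Lyz2 and Csf3r. Their sums were 111 to 121 after MCAO and 14.4 to 24.1 in controls. Lcn2 also belongs to the neutrophil granule genes, and the listed ones Camp, Ngp, Ltf and Mmp8 were not in the table. How genes were left out of it is not given. The part of these cells in the values of the members was not tested.

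Genes were tested with limma on log2(scaled read count + 1) over all 12549 genes with a mean of at least 10, and called at an adjusted p (Benjamini-Hochberg) under 0.05. Of the tested genes 3.08% were called (387), 2.3% higher after MCAO (288) and 0.789% lower (99), and the median log2 change of tested genes was -0.01. All 5 members passed the filter on the mean, and Lcn2, Tgm1 and Aspg did so through their MCAO values. So did other called genes with control means under 10, among them Timp1, Hspb1, Cd14, Emp1, Tm4sf1, Psmb8, Klk6, Socs3 and some microglia markers. For such genes the filter favours a rise, and counts of listed genes that rose carry this limit.

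The other pan-reactive genes rose in most cases. Besides the 4 members on that list, 8 of 9 genes were in the table and 7 were tested; 5 rose and 0 fell, with a median log2 change of 3.45. Gfap, the astrocyte intermediate filament gene, was at 5816, 5272 and 8028 scaled reads in MCAO 1, 2 and 3, against 649, 523 and 557 in controls 1, 2 and 3. Gfap, Vim and Cd44 had readings in every control, unlike Lcn2. Vim, a second filament gene, rose by 3.93 on the log2 scale (SE 0.24, limma adjusted p = 9.02e-07) and Cd44, the hyaluronan receptor gene, by 2.89 (SE 0.43, adjusted p = 0.00163), at 110, 43.5 and 101 in MCAO 1, 2 and 3 against 13.8, 5.32 and 12.1 in the controls. Timp1 was closest to the pattern of Lcn2, at 40.0, 21.8 and 57.9 scaled reads in MCAO 1, 2 and 3, against the floor in controls 1 and 2 and 1.51 in control 3, and Hspb1, a small heat shock protein gene, was at 41.6 ± 9.19 against 3.19 ± 1.91 (SD, n = 3 each; adjusted p = 0.00240). Osmr, the oncostatin M receptor gene, was at 19.4, 3.11 and 40.6 in MCAO 1, 2 and 3 against 10.4, 3.55 and 9.05 in the controls and was not called (adjusted p = 0.539), and Cp, the ceruloplasmin gene, was at 33.1 ± 7.28 against 26.5 ± 13.6 (adjusted p = 0.596). With the filter on the mean raised to 50, which tests fewer genes, 2 of this list rose. This list was drawn from earlier studies of reactive astrocytes, and microglia markers moved with it as given above; their part in its count was not tested.

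The A2 list, which holds Tgm1, had 9 of its other 12 genes in the table and 8 tested, of which 5 rose and 0 fell, with a median log2 change of 1.80. S100a10, which encodes an annexin partner, was at 71.2, 84.0 and 109 scaled reads in MCAO 1, 2 and 3, against 11.2, 8.87 and 24.1 in controls 1, 2 and 3 (adjusted p = 0.00102). Cd14, a lipopolysaccharide co-receptor gene, rose by 2.94 on the log2 scale (SE 0.53, adjusted p = 0.00766), Emp1, a membrane protein gene, by 2.80 (SE 0.71, 0.0471), Tm4sf1, a tetraspanin-like gene named after its values were seen, by 2.51 (SE 0.58, 0.0334), and Stat3 by 0.87 (SE 0.16, 0.00778). Calls were lost without MCAO 1 or MCAO 3 for Cd14 (adjusted p 0.0617 and 0.0854) and Emp1 (0.163 and 0.201). Emp1 was also lost without control 1 (0.122) or control 3 (0.0997), and Tm4sf1 when any library other than control 1 was dropped (0.0521 to 0.135). With no intensity trend Emp1 (0.168), Tm4sf1 (0.113) and Stat3 (0.0759) were not called. The list then had 2 called genes, as it did without MCAO 1 or with the filter at 50, and it had 1 without MCAO 3 and 3 without control 3. Of the A1 list, raised after lipopolysaccharide in mouse studies, 9 of 13 genes were tested, and 2 rose and 0 fell (median 0.52): H2-D1, a class I antigen gene, by 1.13 (SE 0.15, adjusted p = 0.000775), and Psmb8, an immunoproteasome gene, by 1.92 (SE 0.46, 0.0394). When 1 library was left out, the call of Psmb8 was kept only without control 2 (adjusted p otherwise 0.0769 to 0.149).

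Relatives of the members are given next, and the share called over all tested genes was 3.08%. For Lcn2, 7 of 13 lipocalins and partners were in the table and 6 tested, and Apod, a lipocalin that carries lipids, rose (1 of 6, median 0.31). Apod was at 687, 404 and 601 scaled reads in MCAO 1, 2 and 3, against 264, 147 and 247 in controls 1, 2 and 3 (log2 change 1.37, SE 0.23, adjusted p = 0.00471). Ptgds, the lipocalin that makes prostaglandin D, was at 2148 ± 649 after MCAO and 2871 ± 775 in controls (SD, n = 3 each; adjusted p = 0.365). Slc22a17, a cell surface receptor for lipocalin 2, was at 931, 852 and 956 in MCAO 1, 2 and 3 against 834, 685 and 940 in the controls (log2 change 0.17, SE 0.15, adjusted p = 0.584), so the groups overlapped. Apod was not called with no intensity trend (0.104).

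Besides Tgm1, 2 of the 8 other transglutaminase genes were in the table and Tgm2 alone was tested. Tgm2, the widely expressed tissue transglutaminase gene, was at 44.7, 49.8 and 44.0 scaled reads in MCAO 1, 2 and 3, against 25.04, 26.6 and 25.7 in controls 1, 2 and 3. The groups did not overlap, yet it was not called (log2 change 0.81, SE 0.28, adjusted p = 0.126). Of 10 keratinocyte markers, the cells where Tgm1 is best known, 3 were in the table, with sums of 37.3 to 48.8 after MCAO and 39.0 to 60.4 in controls.

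Among clade A serpins, 3 of the 22 relatives of Serpina3n were in the table and 2 tested. Serpina3m, its neighbour on chromosome 12, was at 53.5, 40.4 and 77.3 scaled reads in MCAO 1, 2 and 3, against 14.7, 19.5 and 22.6 in controls 1, 2 and 3 (log2 change 1.51, SE 0.33, adjusted p = 0.0239). The Serpina3 genes are near copies of each other, and reads may have been split between them, so the value of Serpina3m is uncertain. The same limit holds for the values of Serpina3n. Serpina3m was not called without MCAO 1 (0.0647), MCAO 3 (0.140) or control 1 (0.0859), nor with no intensity trend (0.0589). Serpine2, a serpin gene of another clade, was at 2396 ± 329 after MCAO and 2602 ± 436 in controls (adjusted p = 0.773). Of 8 listed proteases that serpins of this type may meet, Klk6, a secreted serine protease gene known from oligodendrocytes, was in the table and rose by 2.88 (SE 0.41, adjusted p = 0.00122). Oligodendrocyte markers rose in 7 of 15 cases in the same libraries, and their part in this was not tested.

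The other enzymes of asparagine and aspartate, to which Aspg is related by its reaction, had small differences. All 13 were tested and limma called 0 of them (0 at an unadjusted p under 0.05 and 0 by edgeR), with log2 changes of -0.39 to 0.63 and a median of -0.08. Asrgl1, a second asparaginase gene, was at 1624, 2109 and 2119 scaled reads in MCAO 1, 2 and 3, against 2195, 1785 and 2019 in controls 1, 2 and 3 (adjusted p = 0.924). Asns, which makes asparagine, was at 271 ± 30.4 after MCAO and 302 ± 79.3 in controls (adjusted p = 0.751).

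S1P is made by sphingosine kinases, leaves the cell and acts on 5 receptors. S1pr1 and S1pr5 were the 2 other receptor genes in the table, and limma called 0 of them (0 at an unadjusted p under 0.05 and 0 by edgeR). S1pr1, known as the main receptor gene of astrocytes and endothelium, was at 695, 799 and 791 scaled reads in MCAO 1, 2 and 3, against 1216, 550 and 1091 in controls 1, 2 and 3 (log2 change -0.24, SE 0.23, adjusted p = 0.602). Control 2 was below and the other controls above all MCAO libraries. Without control 2 S1pr1 was called lower (log2 change -0.60, adjusted p = 0.0345). Astrocyte markers were also lowest in control 2 among the controls, with a sum of 50751 against 84970 and 80997 in controls 1 and 3. The part of these markers in calls made without control 2 was not tested. S1pr5 was at 42.3 ± 10.02 after MCAO and 38.2 ± 10.3 in controls (adjusted p = 0.820). Of 25 tested genes of S1P synthesis, export and breakdown limma called 0 (5 at an unadjusted p under 0.05 and 0 by edgeR), with a median log2 change of 0.01. Sphk1, the kinase gene on the A2 list, was at 14.1, 12.4 and 13.3 in MCAO 1, 2 and 3 against 12.1, 10.6 and the floor in controls 1, 2 and 3 (adjusted p = 0.430), and Sphk2 at 96.6 ± 11.8 against 95.9 ± 33.4. Plpp3, a lipid phosphatase gene that can act on S1P, was at 1443, 1736 and 1901 against 3126, 1707 and 2870 (adjusted p = 0.170; called lower without control 2, log2 change -0.83, adjusted p = 0.00938).

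**Figure D4:**
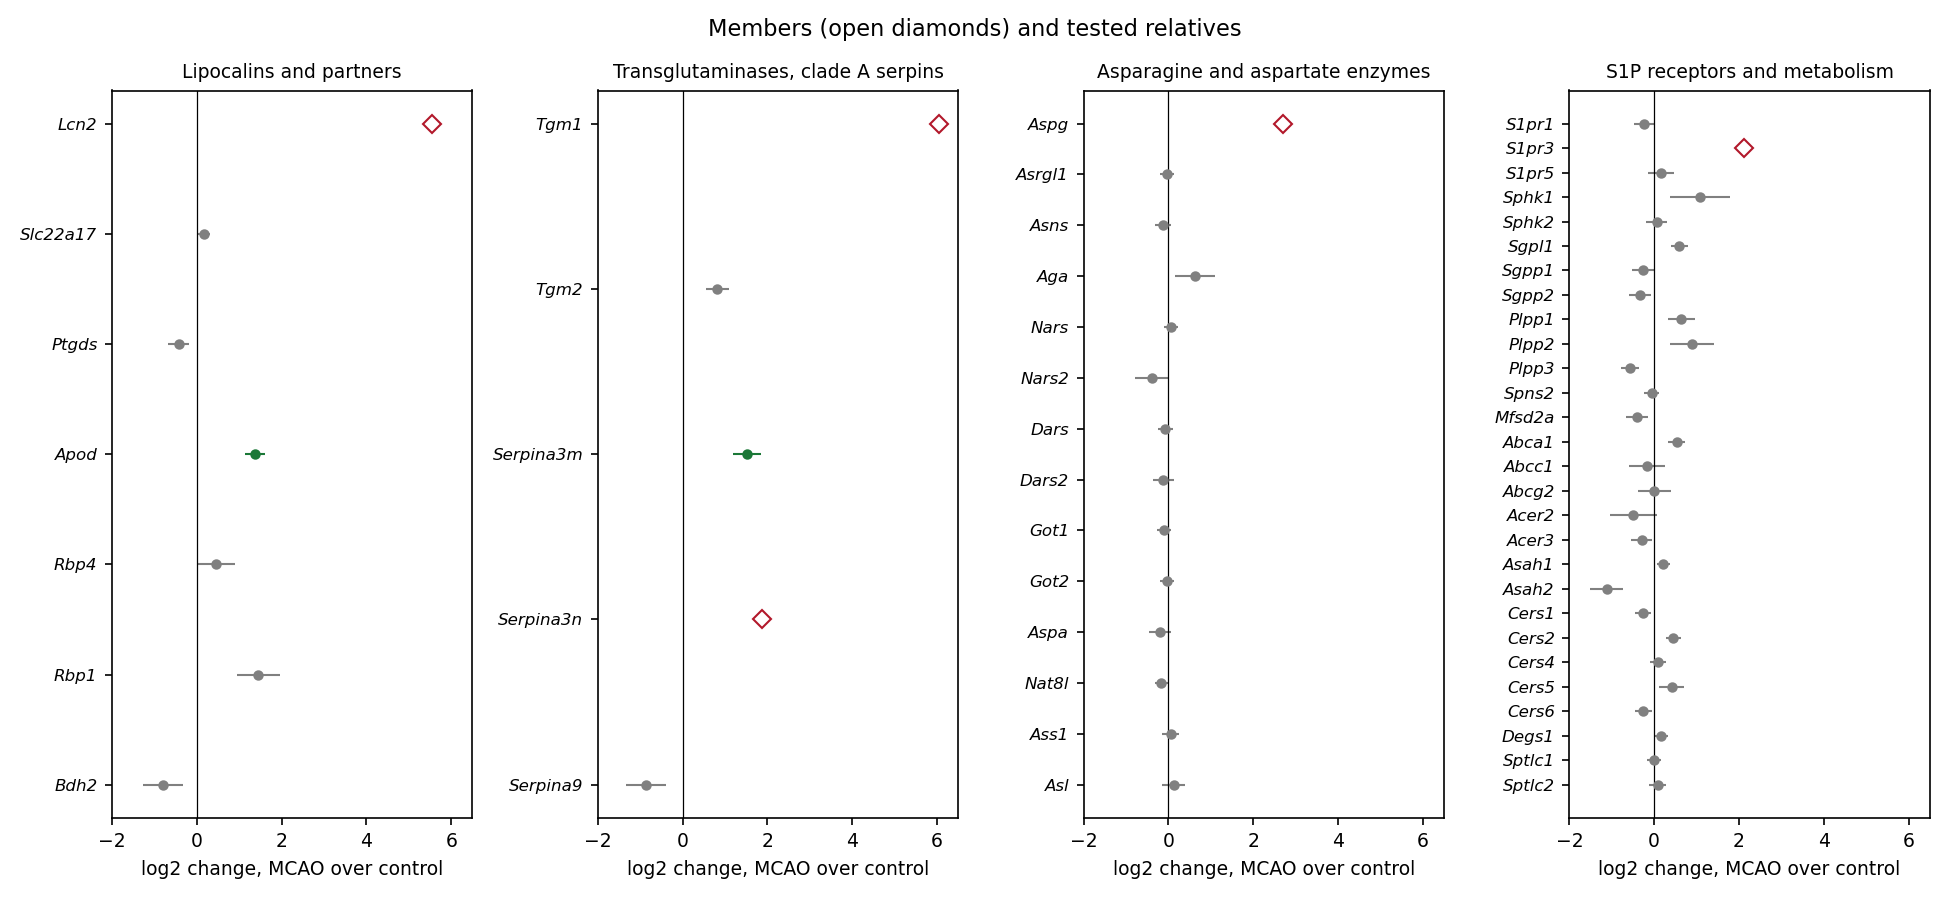
Log2 change (MCAO over control) of the members (open diamonds, a description with no error drawn) and of tested relatives (circles with the standard error; green where called, grey where not) in 4 groups of genes. Lcn2, Tgm1, Aspg and S1pr3 lie at 2.13 to 6.04, and among the relatives drawn Apod and Serpina3m are the 2 called genes.

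Among the listed genes of STAT3, NF-kB and C/EBP signalling, limma called Stat3 and Socs3. Of 14 tested genes of gp130 and STAT3 signalling 2 rose and 0 fell (median 0.16), while 2.3% of all tested genes rose. Stat3 was at 311, 258 and 347 scaled reads in MCAO 1, 2 and 3, against 168, 161 and 166 in controls 1, 2 and 3. Socs3, a feedback inhibitor gene of the route, was at 32.4, 34.2 and 26.6 in MCAO 1, 2 and 3 against 10.9, 1.77 and 3.02 in the controls (log2 change 2.64, SE 0.57, adjusted p = 0.0239). Calls were lost without MCAO 3 for Stat3 (0.0647) and without any MCAO library or control 3 for Socs3 (0.0536 to 0.0935), and with no intensity trend for both (0.0759 for Stat3 and 0.0654 for Socs3). Of 13 tested NF-kB and C/EBP genes limma called 0 (3 at an unadjusted p under 0.05 and 1 by edgeR). That one was Cebpd, a C/EBP gene named after its values were seen, at 63.5, 21.8 and 99.2 scaled reads in MCAO 1, 2 and 3, against 20.1, 10.6 and 13.6 in controls 1, 2 and 3 (log2 change 1.79, SE 0.47, limma adjusted p = 0.0581, and 0.00416 without MCAO 2). Like the members, Cebpd was lowest in MCAO 2 among the stroke animals, at 0.268 of the mean of the other MCAO libraries.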

How the data were processed

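The authors deposited a single table, 12968 genes in 6 libraries, whose values are a scaled signal: reads divided by the factor of each library, judged from the steps between values, with those under 1 set to 1. The submitters' processing notes name the genome build mm10 and, without saying what each did, DESeq2, Partek 6.6, HISAT2, R 3.3.1 and CASAVA 1.8. How reads were counted, by which strand, how technical replicates were joined and how genes were filtered: not given in the sources used here. Division by the step of each column gave whole numbers of reads (tolerance 0.1) for 99.95% of values above the floor in control 1 and all in the other 5 libraries. The largest value of every gene is at least 10.6.

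Genes with a mean of at least 10 (12549) were tested with limma 3.58.1 in R 4.3.3 (trended empirical Bayes, two-sided, pseudocount 1, Benjamini-Hochberg), all 6 libraries, no covariate. Log2 changes understate those of low genes. edgeR 4.0.16 was run on recovered reads as an alternative chosen after seeing the data and called 520 genes. Fold bounds use 3 reads of the shallowest control, and intervals are 95% and cover counting error only. Members, lists and named genes were chosen with earlier results of these data known; named genes were the members, the genes most like them, up to 3 called (and otherwise the most abundant) genes of each list, and a fixed set of receptors, enzymes and markers. The labels do not say whether the animals shared a litter or a day. Promoter letters are from RefSeq, GRCm38.p6, matched by symbol for 5 of 5 members. Some listed genes are not reported here.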

Additional observations from a re-analysis of the deposited data

How the results depend on the processing

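No paired analysis was run because the groups are different animals and the labels state no pairing between them. Called genes numbered 387, and 157 with no intensity trend (139 higher, 18 lower). With a mean of at least 50, 181 were higher. With 1 library left out, called genes numbered 148 to 306, higher ones 120 to 220 and lower ones 23 to 97. With MCAO 2 and control 2 both left out, 567 were called and 236 were lower. With a pseudocount of 0.1 and of 5, the log2 difference of Lcn2 was 6.39 and 4.02, of Tgm1 6.89 and 4.50 and of Aspg 3.13 and 1.81. With 3 reads per library averaged over controls, which leaves out the reads hidden in control 1, the fold bounds would be 26.5 for Lcn2 and 39.7 for Tgm1. Left-out libraries gave 5.41 to 5.79 for Lcn2, 5.73 to 6.46 for Tgm1, 1.68 to 2.22 for Serpina3n, 2.29 to 2.92 for Aspg and 1.51 to 2.65 for S1pr3. Of the genes not called, small log2 changes turned sign with 1 library left out, over ranges of -0.26 to 0.0018 for Serpine2, -0.18 to 0.13 for Serpini1, -0.12 to 0.085 for Asrgl1, -0.058 to 0.34 for S1pr5, -0.024 to 0.45 for Rock2, -0.19 to 0.32 for Sphk2, -0.033 to 0.78 for Cp, -0.30 to 0.067 for Asns, -0.059 to 0.43 for Serping1 and -0.38 to 0.0022 for Aqp4. They did so too in Serpini1 with quantile normalisation (0.035), edgeR (0.036) or without the shallowest libraries (0.16), and in the last case in Degs1 (-0.0077), Jak1 (0.0070) and Asns (0.16). The cause was not tested. At 882263 reads, MCAO 2 gives Aspg 6 and S1pr3 7 reads, which sets the width of their intervals.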
